A study of Mus musculus with 12 samples.

Results

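The nuclear genome encodes most subunits of the respiratory chain and of the ATP synthase, and their mRNAs were followed here in mouse cortex. Genes were taken as members by symbol: those starting with Nduf plus a, b, c, s or v and a number (complex I), Sdha to Sdhd (complex II), those starting with Uqcr (complex III), with Cox4 to Cox8 (complex IV) and with Atp5 (complex V). Symbols ending in -ps, of which there were 7, were left out. The rule gave 89 gene identifiers under 88 symbols, of 36047 genes in the table: 40 for complex I, 4 for complex II, 8 for complex III, 19 for complex IV and 18 for complex V. The symbol alone chose them, so a few are not subunits in the strict sense, and Ndufa4 is now placed in complex IV.

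In the inner mitochondrial membrane, complexes I and II pass electrons from NADH and succinate to ubiquinone, complex III passes them on to cytochrome c, and complex IV hands them to oxygen. The proton gradient that complexes I, III and IV build is used by complex V to make ATP. Each of these complexes except complex II mixes nuclear subunits with subunits encoded in mitochondrial DNA, and neurons depend on this pathway for most of their ATP.

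The study compared cortex of wild-type (WT) mice with cortex of Gde2KO mice, which lack GDE2, a surface enzyme that cleaves glycosylphosphatidylinositol anchors and is encoded by Gdpd5. The knockout is global, so every cell type of the tissue carries it. There were 4 groups of 3 libraries, 12 in all: WT at 4 months, Gde2KO at 4 months, WT at 19 months and Gde2KO at 19 months, each library of polyadenylated RNA. The study's methods give both sexes for its mice, and the sex of each animal was not used. Replicates are numbered 1 to 3 at 4 months and lettered A to C at 19 months, where the columns carry no replicate number.

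Values are gene sums of the deposited transcript estimates, each divided by a size factor per library, and are called normalized counts below. Depth, in estimated reads, was 46434270 to 59728494 at 4 months. At 19 months it was 3707928 in Gde2KO A and 6734475 in WT A, against 36915259 to 44604721 in the other 4 libraries. One read was worth 8.29 normalized counts in Gde2KO A and 4.66 in WT A, so members near that level rest on single reads there. Neuronal markers were detected in every library, with a summed level of 252474 to 343415, and no neuronal marker was at 0. WT replicates 1 and 2 at 4 months stood apart in markers of neighbouring brain regions: summed striatal markers were 7909 and 6030 in them against 33961 to 92686 in the other 4 libraries of that age, and summed hippocampal markers were 27988 and 26986 against 10001 to 15794.

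Gdpd5 (chromosome 7, 99381414 to 99461877, GRCm38) had 684, 702 and 1199 normalized counts in WT and 417, 585 and 403 in Gde2KO at 4 months. It had 1065, 1129 and 952 in WT and 441, 456 and 560 in Gde2KO at 19 months. The knockout libraries lay below every WT library at both ages. At 4 months the difference on the log2 scale was -0.85 ± 0.25 (SE), with a limma adjusted p of 0.463. At 19 months it was -1.11 ± 0.12 (SE), with a limma adjusted p of 0.0111.

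Several promoter elements are known from genes of this pathway, among them sites for NRF1, for ETS factors such as GABP, and for YY1. Promoter sequences (RefSeq, GRCm38.p6, 250 bases before to 50 after the start site) matched 68 of the 89 identifiers. The NRF1 motif, GCGC followed by any base and TGCGC, was present on either strand in 16 of these 68, or 23.5%, against 4.6% of 32851 promoters in the table. For CCGGAAG (ETS) the members' count was 15, or 22.1%, against 8.86%, and for AAGATGGC (YY1) it was 9, or 13.2%, against 2.75%. At least 1 of the 3 motifs occurred in 35 members' promoters (51.5%) and in 14.7% of all promoters. No match of the 3 motifs overlapped another in the stretches below. A match is a description of letters and was not tied to any level measured here.

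The stretches below are 60 bases upstream of the RefSeq start site, 5′ to 3′ on the gene's strand, with matches in capitals. That site is not always the start of the leading transcript. The 2 starts lay 109 bases apart for Cox7c, whose stretch falls inside the gene as annotated. They lay 23 apart for Cox6a1, whose stretch does so in part, and at most 836 apart (Atp5f1). The stretches are shown for members that the results return to, with Cox7c as an example that holds none of the 3 motifs in its window. For Ndufs5 (chr4:123718250-123718309, minus strand) the NRF1 match starts at -98 from the start site. For Sdhd (chr9:50603884-50603943, minus strand) an NRF1 match at -79 and an ETS match at -46 lie in 1 stretch. The others are Uqcr11 (chr10:80406855-80406914, minus strand, ETS), Atp5h (chr11:115419925-115419984, minus strand, ETS), Cox6a1 (chr5:115348959-115349018, minus strand, ETS) and Cox7c (chr13:86046796-86046855, minus strand, none). Outside the printed bases, the windows of Atp5h and Cox6a1 also held NRF1 matches, the first at -141 and -162.
Ndufs5: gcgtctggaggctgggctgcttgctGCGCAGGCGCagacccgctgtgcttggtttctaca
Sdhd: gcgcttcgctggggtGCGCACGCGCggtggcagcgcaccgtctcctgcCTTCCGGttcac
Uqcr11: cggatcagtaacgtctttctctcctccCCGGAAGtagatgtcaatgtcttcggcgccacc
Atp5h: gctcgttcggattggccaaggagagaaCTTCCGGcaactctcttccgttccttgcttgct
Cox6a1: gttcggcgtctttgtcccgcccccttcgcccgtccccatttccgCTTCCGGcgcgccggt
Cox7c: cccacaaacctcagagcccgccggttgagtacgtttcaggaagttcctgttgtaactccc

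On the TPM scale, which corrects for length, the sum of the members in WT at 4 months was 32211, 28523 and 30934. Complex I held 32.4% ± 0.15 (SD, n = 3) of that sum, complex II 2.51% ± 0.13, complex III 9.41% ± 0.098, complex IV 30.3% ± 0.78 and complex V 25.4% ± 0.54. The member of highest mean TPM was Ndufa4 in complex I (765.7), Sdha in complex II (335.7), Uqcr11 in complex III (638.6), Cox4i1 in complex IV (1728) and Atp5b, the catalytic β subunit, in complex V (1199). Ndufa4 is counted in complex I by its symbol, though now placed in complex IV, and Ndufb8 came next in complex I (477.7). Across all members the first 6 in order were Cox4i1, Cox6a1 (1677), Cox8a (1620), Atp5b, Cox6c (1025) and Cox7c (936), which together made up 26.8% ± 0.55 of the members' TPM.

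Spearman's rho of the 84 tested members' TPM between 2 libraries ran from 0.897 to 0.996 over the 66 pairs, and the lowest value involved Gde2KO replicate 3 at 4 months. The points are genes with the same transcript lengths in every library, so this is a description. The median coefficient of variation of a member among the 3 WT libraries was 7.7% at 4 months and 5.79% at 19 months. Among the Gde2KO libraries it was 38.2% at 4 months and 4.84% at 19 months.

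The wide spread of Gde2KO at 4 months came with a single library. In Gde2KO replicate 3, 82 of the 84 tested members lay above the highest of the other 5 libraries of that age, against 44.0% of 19035 tested genes. The exceptions were Cox6b2 and Cox7b2, which are both low in cortex. The ratio of replicate 3 to the mean of the other 5 libraries had a median of 1.92 over the members and ran from 1.08 to 2.65, while its median over all tested genes was 1.13. By complex the median ratio was 1.97 for I, 1.73 for II, 1.90 for III, 1.95 for IV and 1.83 for V. Replicates 1 and 2 stayed near WT: on the log2 scale the members' median deviation from the WT mean was 0.17 and -0.02 in them, and 0.97 in replicate 3.

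**Figure D1:**
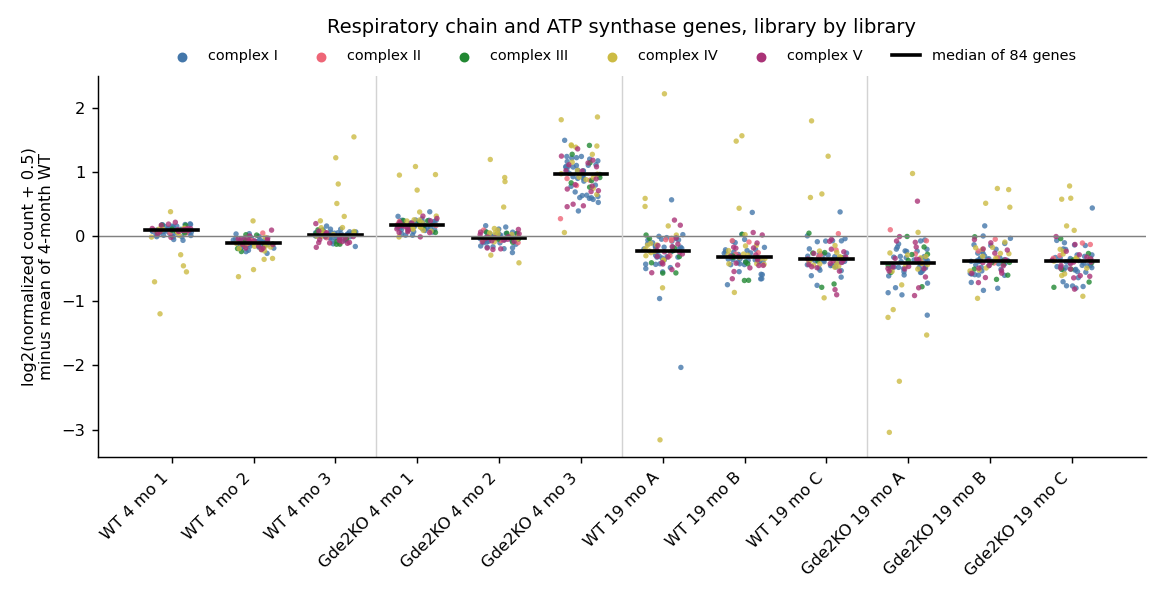
Each point is 1 of the 84 tested members in 1 library, as its log2(normalized count + 0.5) minus the mean of the 3 WT libraries at 4 months, colored by complex; the black bar is the median, and grey lines separate the 4 groups. The median stands at 0.97 in 4-month Gde2KO replicate 3 and between -0.22 and -0.42 in the 6 libraries at 19 months.

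The same library differed in other measures, whose part in the members' values was not tested. Mitochondrial symbols took 8.84% of its normalized counts against 5.1% to 5.97% in the other 5 libraries. Transcripts under 1000 bases took 13.6% against 9.65% to 10.5%, and its deposited TPM summed to 1472300 where the others summed to between 1003570 and 1103970. After all libraries were scaled to an equal TPM total (called rescaled TPM below), the summed TPM of the members in replicate 3 was 1.33 times the mean of the other 5, and that of complex II was 0.949 times. Summed microglial markers (10 genes, none at 0) were 17558 in it against 9110 to 12176, and neuronal markers were 343415 against 252474 to 305624. Oligodendrocyte (159013), endothelial (10250) and blood markers (11999) were also highest in this library among those at 4 months. Astrocyte markers were lowest in it, at 97114 against 103408 to 122373, as were choroid plexus markers (283).

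**Figure D2:**
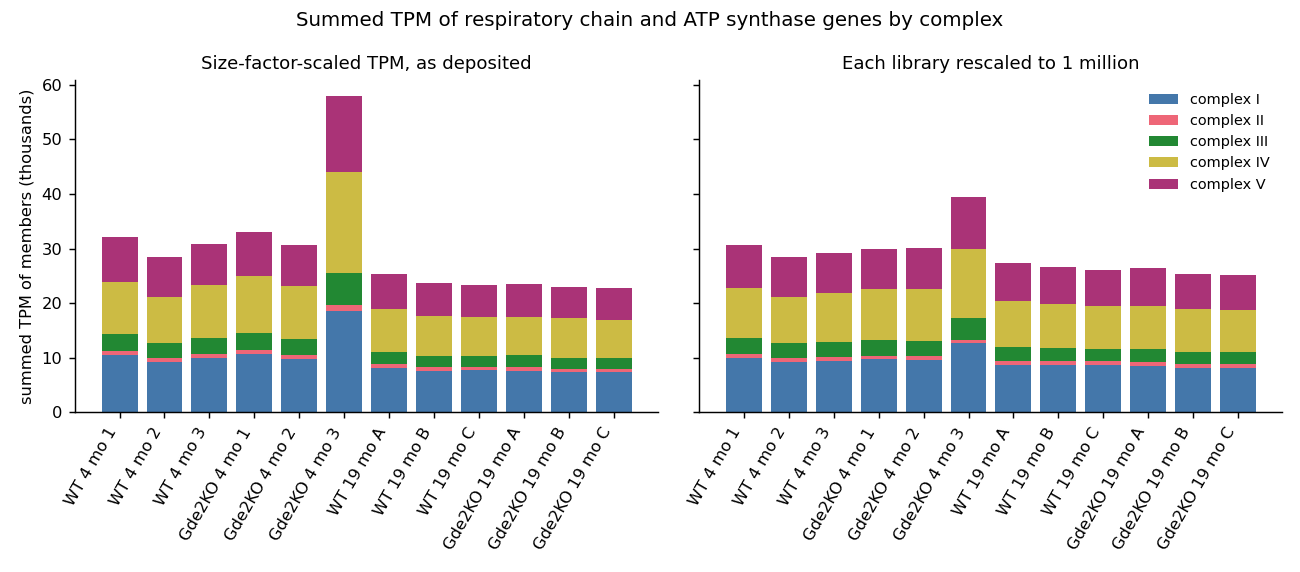
Stacked bars give the summed TPM of the members for each of the 12 libraries, split by complex, as deposited (left) and after scaling all libraries to an equal TPM total (right). The 4-month Gde2KO replicate 3 bar reaches 58028 as deposited and 39413 after rescaling, and the other 11 libraries sum to at most 33114 and 30604.

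Members have short mRNAs. The leading transcript of 67 of the 89 was under 1000 bases, with a median of 680. The deviation of Gde2KO replicate 3 from the other 5 libraries was larger for shorter members, with Spearman's rho of -0.42 against length over 84 members, given as a description. Its median was 1.10 for the 13 members up to 500 bases, 0.97 for the 49 between 500 and 1000, 0.88 for the 18 between 1000 and 2000, and 0.41 for the 4 above 2000. In all tested genes of the same 4 length ranges the medians were 0.11, 0.37, 0.47 and 0.20. In each of these 4 ranges the members' median lay above that of all tested genes.

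**Figure D3:**
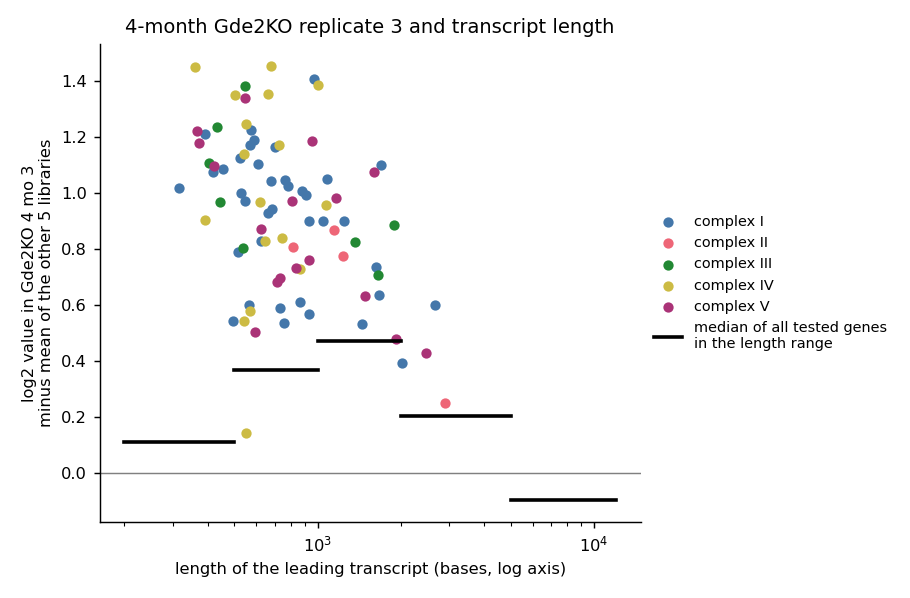
Each point is a tested member, placed by the length of its leading transcript in bases (log axis) and by its log2 value in 4-month Gde2KO replicate 3 minus the mean of the other 5 libraries of that age. Black bars are the medians of all tested genes per length range, 0.11, 0.37, 0.47, 0.20 and -0.10, and the members' rho with length is -0.42.

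The first comparison asked whether loss of GDE2 altered these mRNAs at 4 months. A gene was called where its adjusted p was under 0.1 and its natural-log fold change was over 0.5 in size, which is 0.72 on the log2 scale. No member was called, beside 0.126% of 19035 genes in the same limma fit. An unadjusted p under 0.05 was found for 2 members, or 2.38%, beside 10.6% of all genes. The estimates leaned to higher values in Gde2KO: 83 of 84 were above 0, against 63.2% of all genes. Their median log2 fold change was 0.37, or 0.26 above the median of all genes. Without Gde2KO replicate 3 the median was 0.08, or 0.04 above that of all genes, with 69 of 84 above 0 against 57.8% of all genes, and again 0 were called with limma (0.0265% of all genes) and 0 had an unadjusted p under 0.05 (4.42% of all genes). In 7 members every Gde2KO library lay above every WT library, or 8.33%, against 11.1% of all genes.

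In complex I, the 38 tested members had log2 fold changes of 0.14 to 0.64. The lowest was that of Ndufa10, an accessory subunit, with 3897, 3315 and 3053 in WT and 3682, 3180 and 4476 in Gde2KO. The highest was that of Ndufb4, an accessory subunit of the membrane arm, with 1139, 1003 and 1150 in WT and 1303, 1229 and 3082 in Gde2KO (0.64 ± 0.33 SE, limma adjusted p = 0.478). For Ndufb4 the 2 groups did not overlap, with replicate 3 far above the other 2 knockout values. Ndufb4 shares every 31-base word of the leading transcript of Ndufb4c, so the split of reads between these 2 genes is uncertain.

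The 7 core subunits of the peripheral arm carry the flavin and iron-sulfur clusters. Ndufv1, which binds NADH, had 4903, 4589 and 4650 in WT and 5526, 4864 and 7601 in Gde2KO. Ndufs1, the largest subunit, had 5217, 5074 and 4563 in WT and 5313, 4948 and 7598 in Gde2KO. In both, the third knockout library was the highest of the 6. For Ndufs1 and Ndufv1 the second knockout library lay inside the WT range. Ndufs7, which binds an iron-sulfur cluster near the quinone site, had 2340, 2438 and 2551 against 3183, 2352 and 3701, and Ndufs8 had a ratio of 2.03 for replicate 3. Ndufs3, another core subunit, had no overlap between the groups. It had 1300, 1232 and 1334 in WT and 1520, 1424 and 2535 in Gde2KO (log2 fold change 0.45 ± 0.22 SE, limma adjusted p = 0.469), and its log2 fold change without replicate 3 was 0.19.

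Complex II links the chain to the citric acid cycle and has only nuclear subunits. Sdha, its flavoprotein, had 12566, 12566 and 11275 in WT and 13786, 11586 and 14663 in Gde2KO, and its groups overlapped (log2 fold change 0.13 ± 0.14 SE, limma adjusted p = 0.654). Sdhb, the iron-sulfur subunit, had 3960, 3501 and 3640 against 4202, 3616 and 6890. The membrane anchor Sdhc had 2371, 2160 and 2230 against 2645, 2410 and 4123, and the other anchor, Sdhd, had 1959, 1752 and 1960 against 2122, 1764 and 3267. Sdha, with the longest leading transcript of the members (2900 bases), showed the smallest ratio of replicate 3 within the complex, 1.19, and Sdhb the largest, 1.82.

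Complex III values followed the same shape. Uqcr11, a small subunit, had the lowest log2 fold change of the 8 (0.31 ± 0.27 SE), with 2922, 2204 and 2712 in WT and 2707, 2435 and 5053 in Gde2KO. Uqcrh, the hinge protein that contacts cytochrome c1, had the highest (0.52 ± 0.34 SE, limma adjusted p = 0.516), with 2694, 2362 and 2659 against 2738, 2686 and 6839. For both genes replicates 1 and 2 of the knockout lay near the WT values. The core proteins Uqcrc1 and Uqcrc2 and the Rieske iron-sulfur protein Uqcrfs1 had log2 fold changes of 0.35, 0.35 and 0.36, and their ratios for replicate 3 were 1.63, 1.84 and 1.76.

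Complex IV, which has tissue-specific paralogs, held both the highest and the lowest log2 fold change of the members. Cox4i1, the abundant form of subunit 4, had 15775, 14023 and 17156 in WT and 18597, 16981 and 29416 in Gde2KO (log2 fold change 0.43 ± 0.22 SE, limma adjusted p = 0.477). Its groups overlapped, since the second knockout library lay below the third WT library. Cox5a and Cox5b had ratios of replicate 3 of 1.77 and 1.65. Cox6b2, a testis-enriched form, was the 1 tested member below 0 (-0.12 ± 0.31 SE), with 27.4, 47.8 and 50.2 in WT and 40.1, 30.2 and 42.1 in Gde2KO.

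Cox6a2, the form of subunit 6a known from heart and skeletal muscle, had the highest log2 fold change (1.28 ± 0.51 SE, limma adjusted p = 0.463). Its values were 33.9, 38.7 and 130 in WT and 118, 105 and 202 in Gde2KO. WT replicate 3 thus lay inside the knockout range, and the low values were those of WT replicates 1 and 2. Cox4i2, the form of subunit 4 known from lung, had 18, 19.4 and 44.2 against 41.4, 34.4 and 67.0, and the muscle form Cox8b had 1.44, 3.02 and 12.5 against 8.15, 7.56 and 15.2. All 3 genes were lowest in the 2 WT libraries with low striatal and high hippocampal markers, whose part in these values was not tested. Leaving out WT replicate 3 called these 3 members as higher, and 1510 genes in all.

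In complex V, Atp5g1 had the lowest log2 fold change (0.11 ± 0.19 SE) with 4580, 3772 and 3736 in WT and 4180, 3483 and 5576 in Gde2KO. Atp5l, which encodes subunit g, had the highest (0.49 ± 0.33 SE, limma adjusted p = 0.524), with 3428, 3047 and 3140 against 3334, 3292 and 8212. The contrast between them lay in replicate 3, whose ratio to the other libraries was 1.41 for Atp5g1 and 2.53 for Atp5l. The subunits of the catalytic head, Atp5a1 (α), Atp5b (β) and Atp5c1 (γ), had ratios of 1.34, 1.39 and 1.97. Atp5b, the most abundant of them, had 33549, 30591 and 29485 in WT and 34561, 30206 and 44064 in Gde2KO.

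At 19 months no member was called between the genotypes, beside 0.0969% of 18583 genes called with limma, and 9 members had an unadjusted p under 0.05, or 10.7%, beside 6.91% of all genes. The median log2 fold change was -0.09, or -0.07 relative to all genes, and 10 of 84 estimates were above 0, against 44.6% of all genes. In 26 members, or 31%, every Gde2KO library lay below every WT library, against 8.32% of all genes. The smallest p was that of Ndufc2, an accessory subunit of complex I, with 2101, 1881 and 1972 in WT and 1634, 1588 and 1655 in Gde2KO (log2 fold change -0.29 ± 0.06 SE, limma adjusted p = 0.425). Atp5k, which encodes subunit e of the ATP synthase, came next, with 1365, 1212 and 1221 against 1045, 1087 and 1035 (-0.26 ± 0.07 SE, limma adjusted p = 0.605). These differences amounted to less than the fold change the calls require.

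On the TPM scale the members summed to 25369, 23708 and 23323 in WT and to 23574, 23041 and 22717 in Gde2KO, which overlapped in 1 library. Complex I summed to 8112, 7677 and 7689 in WT against 7553, 7372 and 7320 in Gde2KO, with no overlap. For complex II the values were 697, 665 and 669 against 757, 650 and 655. Summed oligodendrocyte markers (9 genes, none at 0) were 82310 to 109462 in WT and 96904 to 125892 in Gde2KO. Other marker sums did not overlap between the genotypes at this age: astrocyte markers (9 genes) were 96112 to 102518 in WT and 105035 to 113766 in Gde2KO, and hippocampal markers (10 genes) were 7707 to 8628 and 8983 to 10499. Neuronal markers (11 genes) went the other way without overlap, at 279874 to 286488 in WT and 264458 to 277892 in Gde2KO. Of their log2 fold changes, 5 were above 0. Of the 10 hippocampal ones 9 were above 0, with a median of 0.41. Among these, 1 gene was called as higher with limma, beside 0.0323% of all genes. All 9 oligodendrocyte ones were above 0, with a median of 0.28 and 0 called. None of the 6 blood ones was above 0, with a median of -0.40 and 0 called. Striatal markers were 8869 to 11635 and 10913 to 24554, with all 8 log2 fold changes above 0, a median of 0.91, 7 at an unadjusted p under 0.05 and 0 called with limma. The part of these markers in the members' values was not tested.

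The test of whether the genotype difference itself differed between the ages called no member, beside 0.048% of 18731 genes with limma, and 7 members had an unadjusted p under 0.05, or 8.33%, beside 12.9% of all genes. The median difference of differences was -0.45, or -0.30 relative to all genes, with every one of the 84 estimates below 0, against 65.2% of all genes. Without 4-month Gde2KO replicate 3 the median was -0.17, or -0.09 relative to all genes. Cox6a2 had the smallest p (-2.04 ± 0.69 SE, limma adjusted p = 0.368).

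The comparison of ages set different animals and libraries of different depth side by side, and whether the 2 ages were prepared together is not given in the sources used here. Age and preparation cannot be told apart. In bulk tissue, fewer cells of a type and less RNA per cell cannot be told apart either. In WT, summed TPM of the members was 30556 ± 1873 (SD, n = 3) at 4 months and 24133 ± 1087 at 19 months, a ratio of 0.79. As rescaled TPM it was 29406 ± 1107 and 26704 ± 582, a ratio of 0.908. By complex the ratio as deposited was 0.79 for I, 0.885 for II, 0.75 for III, 0.793 for IV and 0.791 for V. On rescaled TPM complex II turned direction, with a ratio of 1.02, and the others had 0.909 for I, 0.862 for III, 0.912 for IV and 0.909 for V.

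In WT, 2 members were called between 19 and 4 months, or 2.38% of the 84, beside 13.7% of 18731 genes. At adjusted p under 0.1 without the fold limit there were 9 members, beside 28.2% of all genes, in both cases a lower share of the members than of all genes. In contrast, 55 members, or 65.5%, had every 19-month WT library below every 4-month WT library, against 26.7% of all genes. The median log2 fold change was -0.29, or -0.22 relative to all genes, and 76 of 84 members had a lower mean at 19 months, with a median change of -18.4%. Leaving out 4-month Gde2KO replicate 3, which enters this fit only through the shared spread, gave 3 called members (13.8% of all genes) and 55 at adjusted p under 0.1 (36.1% of all genes).

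Cox7c (chromosome 13, 86044816 to 86046904, minus strand, GRCm38), which encodes a small membrane subunit of complex IV, fell in WT. It had 5563, 4587 and 5211 normalized counts at 4 months and 2934, 2792 and 2634 at 19 months. The groups stood well apart (log2 fold change -0.87 ± 0.24 SE, limma adjusted p = 0.0253). It remained called in 23 of 24 alternative settings, and on rescaled TPM it had -0.68, within the fold limit, at a limma adjusted p of 0.00973.

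Other small subunits had adjusted p under 0.1 with changes inside the fold limit. Uqcr11 had 2922, 2204 and 2712 at 4 months and 1747, 1617 and 1500 at 19 months (log2 fold change -0.68 ± 0.22 SE, limma adjusted p = 0.0476). Atp5e, the ε subunit, had 2638, 2349 and 3060 against 1803, 1690 and 1422 (-0.71 ± 0.25 SE, limma adjusted p = 0.0664). Uqcrq, Ndufc1, Ndufb8, Atp5g1 and Ndufb4c were the other 5 lower members at this level, with log2 fold changes of -0.66, -0.63, -0.59, -0.40 and -0.71. None of these 7 genes overlapped between the ages in WT. The value of Ndufb4c is uncertain, because of the sequence it shares with Ndufb4.

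Cox6a2 (chromosome 7, 128205435 to 128206387, minus strand) was the 1 member called as higher, with 33.9, 38.7 and 130 at 4 months and 83.9, 156 and 194 at 19 months (log2 fold change 1.29 ± 0.49 SE, limma adjusted p = 0.0831). The ages overlapped, and the call was lost without any of WT replicate 1 or 2 at 4 months, WT B or C at 19 months, Gde2KO 1 at 4 months or Gde2KO B or C at 19 months. The low values are again those of WT replicates 1 and 2 at 4 months. Among members with long transcripts, Sdha had 12566, 12566 and 11275 at 4 months and 11587, 11573 and 12480 at 19 months (-0.03 ± 0.10 SE), and Ndufv1 had a log2 fold change of -0.06 ± 0.13. Over the 84 members the log2 difference between the WT means was less negative for longer transcripts, with Spearman's rho of 0.37, as a description. Its medians were -0.36 up to 500 bases, -0.28 from 500 to 1000, -0.24 from 1000 to 2000 and -0.11 above, against -0.20, -0.15, -0.06 and -0.04 for all genes.

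Ndufs5 (chromosome 4, 123712710 to 123718202, minus strand), an accessory subunit of complex I, had 2478, 2282 and 2554 in WT at 4 months and 594, 1850 and 1774 at 19 months, and 1043, 1707 and 1665 in Gde2KO at 19 months. The low values of each 19-month group were in the 2 libraries of low depth, WT A and Gde2KO A. The same was seen in its leading transcript, with 479 in WT A against 1799 and 1727 in WT B and C, and the part of depth was not tested. Its log2 fold change in WT was -0.96 ± 0.40 SE (limma adjusted p = 0.111).

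**Figure D4:**
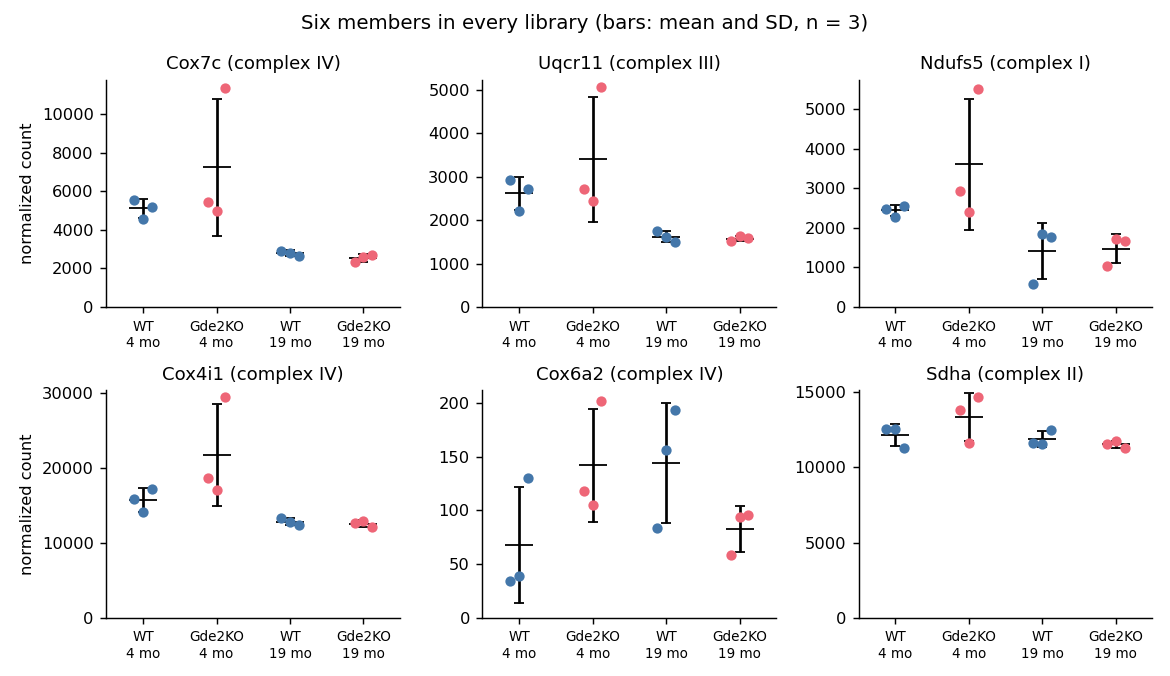
Normalized counts of 6 members in every library, as points by group (blue for WT, red for Gde2KO), with black bars for the mean and SD of 3 libraries and axes starting at 0. Cox7c lies at 4587 to 5563 in 4-month WT and at 2634 to 2934 in 19-month WT, Ndufs5 at 594 in 19-month WT A, and Sdha at 11275 to 14663 in all 12 libraries.

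In Gde2KO, 43 members fell between 4 and 19 months, 51.2% of the 84 tested, and none rose, beside 11.9% of 18731 genes called and 9.32% called as lower. The count rests on 4-month replicate 3: without it 6 were called, 7.14% of the members, all lower, beside 5.91% of 18551 genes called and 3.96% called as lower. Those 6 were Cox7c, Ndufc1, Uqcrq, Ndufa1, Atp5e and Ndufb4, all also called with it. The value of Ndufb4 is uncertain, because of the sequence it shares with Ndufb4c. On rescaled TPM 2 were called, Cox7c and Atp5e. The median log2 fold change was -0.76 with the library, or -0.55 relative to all genes, -0.45 without it, or -0.31 relative to all genes, and -0.34 on the rescaled TPM scale, or -0.56 relative to all genes. At adjusted p under 0.1 alone, 73 members passed with the library and 65 without it, all lower, beside 32.3% and 20.1% of all genes in either direction and 24.9% and 14.7% lower. Against replicates 1 and 2 alone, the 19-month mean was lower for all 84 members, with a median change of -27.1%. Summed striatal markers in Gde2KO were 33961 to 92686 at 4 months and 10913 to 24554 at 19 months. None of the 8 striatal log2 fold changes was above 0, with a median of -1.80, or -2.19 without replicate 3. Whether this difference in striatal markers bears on the members' values was not tested.

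By complex, the called members were 22 of 38 in I, 0 of 4 in II, 5 of 8 in III, 7 of 17 in IV and 9 of 17 in V. Without replicate 3 they were 3, 0, 1, 1 and 1. Cox7c had 5448, 4970 and 11347 at 4 months and 2320, 2620 and 2679 at 19 months (log2 fold change -1.41 ± 0.24 SE, limma adjusted p = 0.00432). Without replicate 3 the value was -1.04, at a limma adjusted p of 0.000426, and the call held in all 24 alternative settings. No 19-month value overlapped the 4-month values.

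Ndufc1, an accessory subunit of the membrane arm of complex I, had 1291, 1069 and 2391 at 4 months and 631, 678 and 695 at 19 months (log2 fold change -1.16 ± 0.22 SE, limma adjusted p = 0.00831). Uqcrq, the ubiquinone-binding small subunit of complex III, had 4168, 3465 and 7881 against 2422, 2351 and 2063 (-1.09 ± 0.23 SE, limma adjusted p = 0.0105). Ndufa1, on the X chromosome, had 1380, 1243 and 2676 against 846, 758 and 731 (-1.10 ± 0.23 SE, limma adjusted p = 0.0112). In these 3 genes replicates 1 and 2 also lay above all 19-month values. Without replicate 3 the log2 fold changes were -0.81, -0.74 and -0.75.

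Of the 10 members with the smallest adjusted p, Ndufb3, Atp5f1, Ndufc2, Uqcr11, Ndufb8 and Ndufv2 were called only with replicate 3. Their log2 fold changes were -1.01, -1.02, -1.04, -1.03, -1.002 and -0.86 with it and -0.68, -0.68, -0.70, -0.70, -0.67 and -0.58 without it, all at adjusted p under 0.1 in both limma fits. Ndufv2, an iron-sulfur core subunit of complex I, had 3932, 3488 and 6665 at 4 months and 2496, 2403 and 2552 at 19 months. Atp5f1, the b subunit of the ATP synthase stalk, had 8215, 7001 and 15374 against 5033, 4564 and 4627. Atp5h, the stalk subunit d, had 5577, 4789 and 9262 against 3904, 3649 and 3780, and was likewise called with replicate 3 (-0.73) and not without it (-0.45). The fold limit of 0.72 on the log2 scale thus lies between the values of these genes with and without the library. Whether the decline with age differs between the genotypes is the test given above, which called no member.

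**Figure D5:**
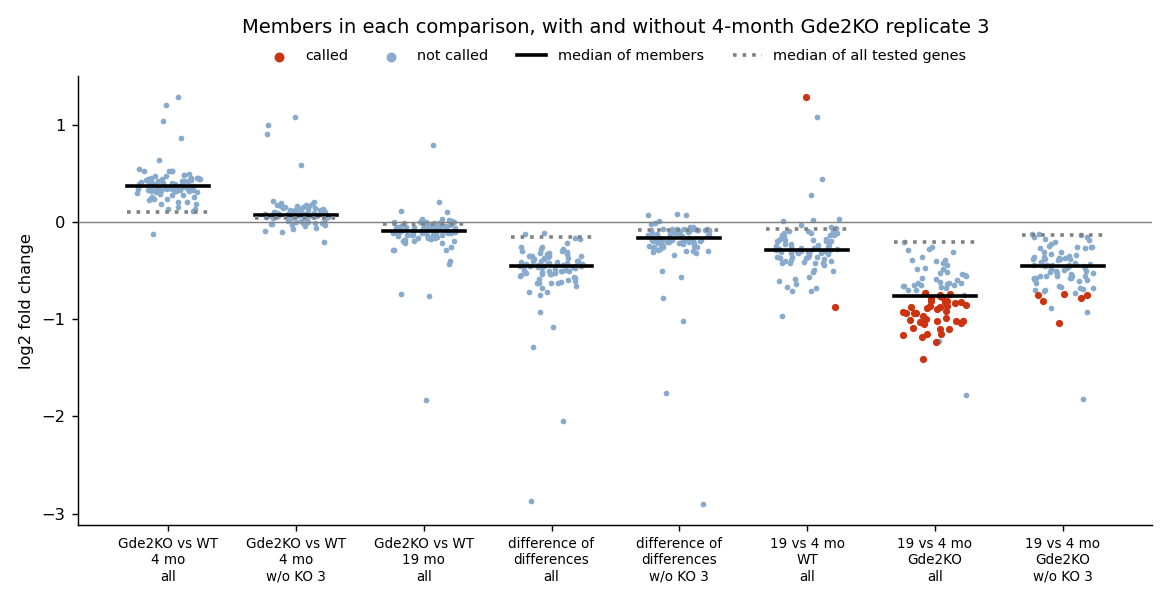
Each point is the log2 fold change of 1 of the 84 members in the comparison named on the axis, with all libraries (all) or without 4-month Gde2KO replicate 3 (w/o KO 3); red points are called, black bars are members' medians and dotted bars the medians of all tested genes. Called members number 2 in WT over age, 43 in Gde2KO over age and 6 there without replicate 3, and members' medians at 4 months move from 0.37 to 0.08.

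Paralogs with the same position in a complex differed widely in level. On the TPM scale in WT at 4 months, Ndufa4 made up 99.5% of the sum with Ndufa4l2, Cox4i1 99.8% of the sum with Cox4i2, Cox6b1 98.5% of the sum with Cox6b2, and Cox8a 99.9% of the sum with Cox8b and Cox8c. Cox6a2 was 0.49% ± 0.35 (SD, n = 3) of subunit 6a in WT at 4 months, 0.811% ± 0.13 in Gde2KO at 4 months, 1.35% ± 0.58 in WT at 19 months and 0.766% ± 0.17 in Gde2KO at 19 months. Its highest share was thus 1.91% in a single library. Within subunit 7a, Cox7a2 held 63.5% ± 1.2, Cox7a2l, known for its part in supercomplex assembly, 34.5% ± 1.7, and the muscle form Cox7a1 1.99% ± 0.6 in WT at 4 months.

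The genes Atp5g1, Atp5g2 and Atp5g3 encode the same mature c subunit of the ATP synthase ring. Atp5g3 held 59.5% ± 1.3 of their TPM in WT at 4 months and 61.6% ± 1.4 in WT at 19 months, Atp5g1 36.7% ± 1.2 and 33.8% ± 1.2. Atp5g2 held 3.76% ± 0.13 and 4.55% ± 1.1. The level of Atp5g2 is uncertain, since Gm10175 shares 87.7% of the 31-base words of its leading transcript and had a mean of 1855 normalized counts against 432.7 for Atp5g2.

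Not tested were 5 identifiers at or near 0: Cox8c at 0 in every library, Cox6c2 at no more than 0.67, Ndufa11b at no more than 2.39, Ndufs6b at 0 in 10 of 12 libraries, and the second identifier of Atp5o at no more than 2.29. Among the tested members, Cox7b2 and Cox8b stood close to the limit, at no more than 18.6 and 15.2 normalized counts.

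Other genes of the pathway give the setting of these values. The 13 protein-coding genes of mitochondrial DNA had a median log2 fold change of 0.39 between genotypes at 4 months and 0.09 without Gde2KO replicate 3. With limma, 0 were called and 0 had an unadjusted p under 0.05 either way. Between 19 and 4 months they had medians of -0.38 in WT, with 0 called, 5 at an unadjusted p under 0.05 and the same number at limma adjusted p under 0.1, all lower, and of -0.87 in Gde2KO, with 9 called as lower. Without replicate 3 the second median was -0.55, and 2 of the 13 were called. Of all genes, 34.5% had an unadjusted limma p under 0.05 in WT, and 15.1% were lower at adjusted p under 0.1. In Gde2KO 9.32% of all genes were called as lower, and 3.96% without replicate 3. In Gde2KO replicate 3 the median deviation of the 13 genes from the WT mean was 1.06, beside 0.97 for the members.

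Genes for assembling the complexes, for the citric acid cycle and for ribosomes were compared in the same fits. At 4 months none of them was called between genotypes with limma, and 6 of the 47 assembly factors, 1 citric acid cycle gene, 3 mitochondrial and 5 cytosolic ribosomal proteins had an unadjusted p under 0.05. The share of all genes at such a p was 10.6%. Medians were 0.18 to 0.47 for the 5 assembly lists, 0.20 for the 13 citric acid cycle genes, 0.32 for 78 mitochondrial ribosomal proteins and 0.37 for 94 cytosolic ribosomal proteins. In Gde2KO replicate 3 the median deviation was 0.99 for cytosolic ribosomal proteins, 0.75 for mitochondrial ribosomal proteins and 0.57 for the citric acid cycle. Between genotypes at 19 months, 1 of 78 mitochondrial and 1 of 96 cytosolic ribosomal proteins were called as lower, beside 0.0646% of all genes. No assembly factor or citric acid cycle gene was called at that age. Between 19 and 4 months in Gde2KO, 11 of 47 assembly factors fell, among them Cox20 (-1.19), Lyrm7 (-0.97) and Cox16 (-0.92), as did the citric acid cycle genes Sucla2, Dld and Suclg1 (-0.74, -0.73 and -0.73). Of the ribosomal proteins, 37 of 96 cytosolic ones (median -0.60) and 26 of 78 mitochondrial ones (median -0.56) fell, and 3 cytosolic ones rose. The share of all genes called as lower was 9.32%. Without replicate 3 the counts called as lower were 2 assembly factors, 0 citric acid cycle genes, 6 cytosolic and 3 mitochondrial ribosomal proteins, beside 3.96% of all genes. The shares of the assembly factors (2 of 47) and of the mitochondrial ribosomal proteins (3 of 78) were thus near that of all genes.

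Regulators of mitochondrial gene expression were taken as a list and fitted gene by gene. Of 14, including Ppargc1a, Nrf1, Gabpa, Esrra, Tfam and Yy1, none was called in any of the 5 comparisons with limma. An unadjusted p under 0.05 was found for 10 of them between the ages in Gde2KO and for at most 2 in each of the others. In Gde2KO over age 37.5% of all genes had such a p, and without replicate 3 the regulators' count was 6, beside 29.4% of all genes. Their medians were 0.12 between genotypes at 4 months, 0.04 between the ages in WT and -0.13 between the ages in Gde2KO. In Gde2KO over age they moved both ways, with 5 of 14 estimates above 0. At limma adjusted p under 0.1, 3 were higher and 4 lower there, beside 7.45% and 24.9% of all genes. Glycolytic genes (17 identifiers) had medians of 0.11 in WT and -0.03 in Gde2KO between the ages, and Gapdh was the 1 called gene, higher by 1.21 and 0.94. Of the 3 remaining subunits and carriers, Ndufab1, Cyc1 and Cycs, the mobile electron carrier Cycs fell in Gde2KO with age (-1.01, limma adjusted p = 0.00983), and without replicate 3 none of the 3 was called. Between 19 and 4 months in WT, marker lists moved too: 6 of 10 hippocampal and 4 of 9 oligodendrocyte markers fell and 4 of 6 blood markers rose. Of all genes, 7.4% were called as lower and 6.29% as higher. In Gde2KO over age, 1 of 8 striatal, 2 of 10 hippocampal and 4 of 9 oligodendrocyte markers were called as lower. There 1 of 8 choroid plexus markers was called as higher. Of all genes, 9.32% were called as lower and 2.55% as higher in that fit. The part of these markers in the members' values was not tested.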

How the data were processed

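RNA of 12 cortex samples was sequenced as polyadenylated mRNA. Per the submitters' processing notes and the study's methods, the authors demultiplexed with bcl2fastq 2.17 and quantified with kallisto and sleuth. The notes also name STAR 2.5.2b. In the study's methods, STAR and trimming with Trimmomatic 0.36 belong to the splicing analysis. The deposited tables hold signal values per transcript, estimated counts and TPM, that the authors divided by a size factor per library.

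Here 118489 transcripts were summed to 36047 genes, and 1673 transcripts without a gene were left out. Genes at 5 or more normalized counts in at least 47% of libraries were tested on log2(value + 0.5) with limma 3.58.1 (R 4.3.3) with an intensity trend, in place of the sleuth Wald test of the study's methods. The genotypes were compared within each age, and the ages and the interaction in 1 fit of 12 libraries. A fold change on this scale understates changes of low genes. Replicates are separate samples in the labels. The study gives 3 animals per genotype for its sequencing at 19 months. Whether any of them were littermates is not given. The p-values measure the spread between these samples. For a call, p adjusted by Benjamini-Hochberg had to be under 0.1 and the natural-log fold change over 0.5 in size (for the interaction, adjusted p alone). The fits were tested on simulated counts with the same spread setting for all libraries and no outlying library. Of 200 changed genes, 197 were recovered at 4 months, 200 at 19 months and 191 for the interaction, with 5, 0 and 5 false calls. This does not cover data with a library like 4-month Gde2KO replicate 3. Named genes were Gdpd5, called members (at most 10 of smallest adjusted p per comparison), the extremes of each complex at 4 months, complex II and core subunits, paralogs, the member of highest TPM per complex, members under the filter, and called genes of other lists. Others, such as Ndufs5, Atp5h, Ndufc2, Atp5k and small subunits at adjusted p under 0.1, were chosen after their values were seen. The members and lists were chosen with earlier results of these data known. Columns at 19 months were assigned by group. A result on 1 member is not reported here.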

Additional observations from a re-analysis of the deposited data

How the results depend on the processing

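Between genotypes at 19 months no member was called in any of 19 alternative settings, and the members' median ran from -0.12 to -0.06 with single libraries left out. At 4 months 0 members were called in 19 of 21 settings, 5 with array weights (2934 genes in all) and 0 to 3 with single libraries left out, the 3 without WT replicate 3 (1510 genes in all). The median there ran from 0.08 to 0.58, lowest without Gde2KO replicate 3. The interaction count was 64 with array weights, which called 8744 genes, and 0 to 1 with single libraries left out, while its median ran from -0.65 to -0.17. Without WT replicate 3 at 4 months the interaction was called for 2029 genes. In WT between the ages, 1 member was called without the filter on low values, without the intensity trend and on rescaled TPM, 4 on gene-level TPM, 9 by adjusted p alone, and 1 to 3 with single libraries left out. Its median was -0.18 after the length trend was removed, -0.10 on rescaled TPM, and -0.34 to -0.25 with single libraries left out. In Gde2KO between the ages, 27 were called after median-of-ratios rescaling, 22 with the same total per library, 14 with array weights, 11 after the length trend was removed, 2 on rescaled TPM and 73 by adjusted p alone. With single libraries left out, 6 to 61 were called, the 6 without 4-month replicate 3. Its median was -0.34 on rescaled TPM and -0.98 to -0.45 with single libraries left out. The array weights were estimated with a warning that the convergence tolerance was not reached, so their counts are uncertain. The causes of these changes were not tested.

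Scaling all libraries to an equal TPM total moved the median of all genes at 4 months from 0.11 to -0.15, in WT over age from -0.07 to 0.10, in Gde2KO over age from -0.21 to 0.23 and for the interaction from -0.15 to 0.12. Relative to all genes, the members' median kept its sign in every setting run: 0.04 to 0.41 at 4 months, -0.10 to -0.04 at 19 months, -0.28 to -0.17 in WT over age, and -0.72 to -0.31 in Gde2KO over age. Rescaled TPM, the length trend with Gde2KO replicate 3 left out, and leaving out both libraries of lowest depth were chosen after seeing the data. With a replicate block at 4 months 0 members were called, the median was 0.37 and 21 genes were called in all, against 24 without it. Same-numbered libraries did not deviate together (correlations 0.024, -0.027 and -0.077), so the numbers were not taken as pairs. No paired analysis was possible at 19 months because the columns carry no replicate number. Cox6a2 in WT over age lost its call in 9 of 24 settings, with 0.94 the lowest log2 fold change. The call of Gdpd5 at 19 months was lost in 4 of 18 settings. Low depth limits members with few counts in Gde2KO A and WT A at 19 months.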
